A study of Homo sapiens with 12 samples.

Results

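The genes described here are the replication-dependent histone genes, which encode the proteins that package newly made DNA. They were chosen by name: the probe annotation had to give a symbol starting with HIST1H, HIST2H, HIST3H or HIST4H, or one of the current names H1-1 to H1-6, H2AC, H2BC, H3C or H4C. Of the 19775 genes with a probe set of their own, 45 met this rule, 6 of class H1, 9 of H2A, 14 of H2B, 7 of H3 and 9 of H4. Of these, 2 (H2AC5P and H4C10P) are annotated as pseudogenes. A further 20 probe sets match several histone genes at once and are described apart, and 19 histone genes are covered by such probe sets alone.

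The arrays hold RNA of L428 and L1236, established lines of classical Hodgkin lymphoma. In this disease the tumour cells derive from B cells but express few B-cell genes. Both lines were profiled without treatment and after 5-Aza-dC (decitabine), on 3 arrays for each of the 4 groups. Treated cells of either line received 1 µM of the drug for 24 h, were washed and grew for another 72 h in normal medium before RNA was taken. 5-Aza-dC is a cytidine analogue that is built into DNA and traps DNA methyltransferases there, so DNA methylation falls as cells divide. The labels name no vehicle for the untreated cells and do not say when they were harvested. They state that the experiment was done in triplicate, not that the 3 were separate cultures, so p-values measure the spread between these arrays, which may be technical. For 1 array, untreated L1236 replicate 1, the labels disagree: its description says untreated L1236, which was used, and its source name says treated L428. Its values correlated best with those of another untreated L1236 array, and calls, counts and directions that change without it are given beside the results they concern.

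In dividing cells the replication-dependent histone genes are switched on at the start of S phase by NPAT, a coactivator driven by cyclin E and CDK2. Their mRNAs normally end in a stem-loop bound by SLBP and carry no poly(A) tail, and they are degraded when DNA synthesis stops. Some of these genes also give rise to polyadenylated transcripts, which persist outside S phase. In the series description a whole-transcript array and labelling assay are given, whereas the probe set identifiers are those of an array designed for the 3′ ends of mRNAs. All 54675 deposited probe sets belong to that annotation, so the values are read as those of the 3′ array. Which labelling was used was not settled, so whether the signals reflect all histone mRNAs or mainly those with a poly(A) tail is not known. In bulk RNA, more cells that express a gene and more RNA per cell cannot be told apart.

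Levels are log2 signals as deposited, and a change is the treated mean minus the untreated mean on that scale, ± SE, from limma with p-values adjusted over all 19775 genes. Calls are made where that adjusted p is below 0.05. The scale has its floor near 2 to 3, and a fold that starts there has an uncertain size. Of the histone genes, 17 of 45 stayed below 4 on every array. The median level over the 12 arrays was 3.66 for the histone genes and 5.01 for all genes.

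The stretches of DNA upstream of these genes show how the family is built. RefSeq promoters (GRCh38.p14) were matched for 40 of the 45 genes, and the 250 bases before the start of transcription were searched on both strands for the CCAAT box (the letters CCAAT), for the TATA box (the letters TATAAA), for ATTTGCAT (the octamer, bound by OCT factors) and for AAACACA (the H1 box of linker histone promoters). Of the promoters, 5 are shown because the results turn on them, each written 5′ to 3′ on the strand of its gene with the matches in capitals. H2AC6 and H2BC4 lie back to back and share a stretch, H2BC12 and H4C8 rose in both lines, H1-2 is a linker histone that rose in both, and H2BC13 was below 4 on every array.
H2AC6, chr6:26123922-26124171, plus strand: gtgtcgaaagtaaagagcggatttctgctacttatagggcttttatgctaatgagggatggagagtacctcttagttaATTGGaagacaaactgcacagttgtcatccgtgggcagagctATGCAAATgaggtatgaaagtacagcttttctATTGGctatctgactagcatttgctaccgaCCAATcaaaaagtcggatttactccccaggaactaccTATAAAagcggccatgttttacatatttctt
H2BC12, chr6:27146859-27147108, minus strand: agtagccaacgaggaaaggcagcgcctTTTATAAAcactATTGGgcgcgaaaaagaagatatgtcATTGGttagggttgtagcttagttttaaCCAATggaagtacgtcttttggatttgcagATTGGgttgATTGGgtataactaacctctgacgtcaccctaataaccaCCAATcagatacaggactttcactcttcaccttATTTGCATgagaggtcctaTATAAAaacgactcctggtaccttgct
H4C8, chr6:26285535-26285784, minus strand: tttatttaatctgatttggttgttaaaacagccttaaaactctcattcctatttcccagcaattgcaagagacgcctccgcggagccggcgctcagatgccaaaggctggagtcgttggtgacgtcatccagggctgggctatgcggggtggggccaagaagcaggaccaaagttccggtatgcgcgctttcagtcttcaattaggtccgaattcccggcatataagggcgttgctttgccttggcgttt
H1-2, chr6:26056471-26056720, minus strand: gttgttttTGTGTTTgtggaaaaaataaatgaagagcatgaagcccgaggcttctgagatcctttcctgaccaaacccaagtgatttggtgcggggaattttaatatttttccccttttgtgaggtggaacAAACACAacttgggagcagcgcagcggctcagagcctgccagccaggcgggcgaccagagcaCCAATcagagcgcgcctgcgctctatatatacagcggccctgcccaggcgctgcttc
H2BC13, chr6:27807930-27808179, minus strand: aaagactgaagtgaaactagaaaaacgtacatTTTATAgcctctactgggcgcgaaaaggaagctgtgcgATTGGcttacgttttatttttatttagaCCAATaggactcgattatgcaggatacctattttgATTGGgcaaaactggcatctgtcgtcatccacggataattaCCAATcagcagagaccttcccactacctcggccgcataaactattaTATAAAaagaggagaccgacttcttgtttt

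CCAAT was found in 35 of the 40 promoters (87.5%), against 33.0% of all 27305 promoters in the table. TATAAA was found in 27 (67.5%), against 11.1%, where TTTATAAA counts on both strands. The octamer was found in 16 (40.0%), against 1.66%, and all 16 belong to H2A genes (6 of 8) or H2B genes (10 of 13). AAACACA was found in all 6 H1 promoters and in none of the other 34, against 4.95% of all promoters. The H4C8 stretch held none of the 4. Histone promoters had a median of 9 CpG dinucleotides in 250 bases and a GC content of 41.8%, against 11 and 58.0% for all promoters. Back-to-back neighbours such as H2AC6 and H2BC4 share most of their 250 bases, so the same match can be counted for both. A match is a description of letters and not a bound site.

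After 5-Aza-dC, histone genes rose in both lines and none of the 45 was called lower. In L428, 17 of 45 (37.8%) were called higher, where 3.32% of all genes were higher and 1.34% lower. In L1236, 17 of 45 (37.8%) were called higher, where 8.59% of all genes were higher and 6.35% lower. Without the array with conflicting labels, 15 rose in L428, and 14 rose and 1 fell in L1236. The same 14 genes rose in both lines (31.1% of the histone genes, against 1.34% of all genes). The lines share no arrays, but 1 fit over all 12 arrays supplied the error for both. With only the arrays of each line in its fit, 8 of the 14 kept both calls (0.394% of all genes were higher in both there), and H2AC17, H2AC8, H2BC21, H2BC4, H3C2 and H4C8 were not called in L428. Of the 14, 7 remained without probe sets marked _x_at or _s_at, and 11 to 14 with 1 array left out. In each line 16 of the 17 rose at least 2-fold, against 2.56% of all genes in L428 and 5.72% in L1236. The median change over all 45 genes was 0.63 in L428 and 0.50 in L1236, beside -0.02 and -0.03 over all genes.

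Class H2B held the most calls. Of its 14 genes, 8 rose in L428 and 10 in L1236, with medians of 3.21 and 1.82. In both lines H2BC5, H2BC6, H2BC9, H2BC12L and H2BC21 were called through _x_at or _s_at probe sets. Such probe sets may bind related sequences, so these calls may not stand for separate genes. Of 9 H2A genes, 4 rose in L428 and 2 in L1236, of 6 H1 genes 2 and 1, of 7 H3 genes 2 and 3, and of 9 H4 genes 1 in each line. The median change of the H4 genes was 0.06 in L428 and -0.03 in L1236. The classes differed in level, since 6 of the 9 H4 genes stayed below 4 on every array, as did 3 of 6 H1, 3 of 9 H2A, 2 of 14 H2B and 3 of 7 H3 genes. Of the 20 shared probe sets, 6 match H4 genes.

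**Figure D1:**
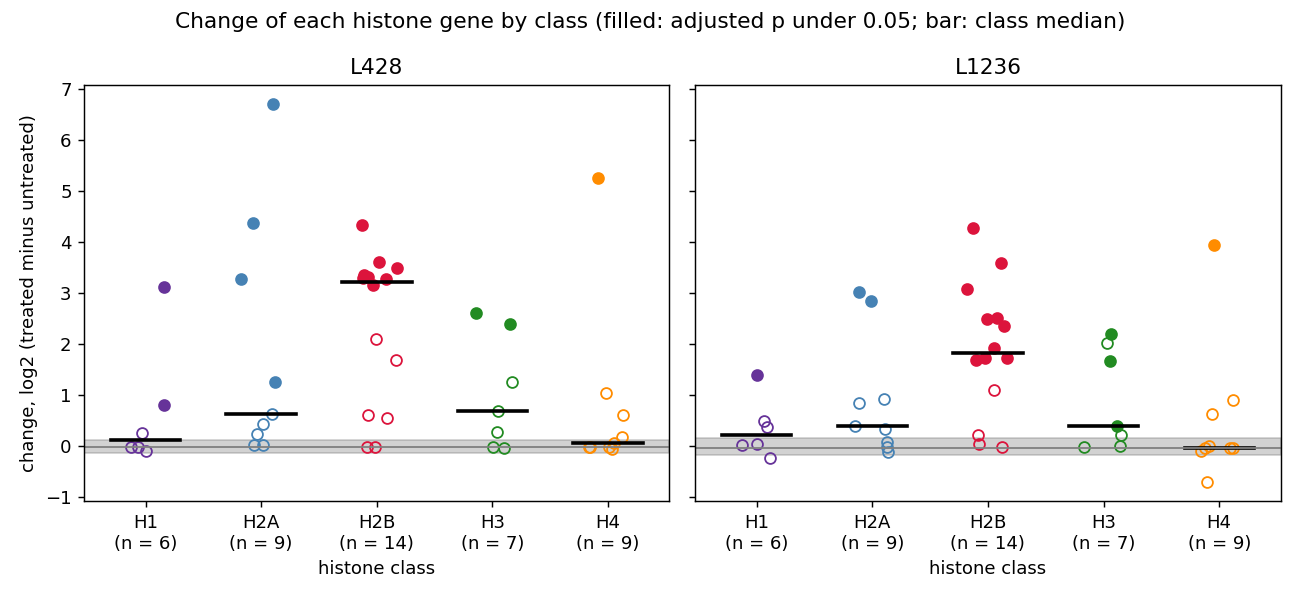
Change (log2, treated minus untreated, y axis) of each of the 45 histone genes by class (x axis), in L428 and L1236; filled points had an adjusted p under 0.05, black bars are class medians, and the grey band is the interquartile range of all 19775 genes, with their median as a line. H2B genes have the highest medians, 3.21 and 1.82, and most H4 genes lie near 0 in both lines, 6 of the 9 being below 4 on every array.

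Counted without a test, all 3 treated arrays lay above all 3 untreated arrays for 23 of the 45 genes in L428 (9.21% of all genes) and for 21 in L1236 (15.8%). All treated arrays lay below all untreated arrays for 0 genes in L428 (8.67% of all genes) and 7 in L1236, where 41.5% of all genes did so. These 7 (H1-5, H2AC5P, H2BC13, H3C11, H4C7, H4C10P and H4C13) stayed below 4 on every array. They changed by -0.23 to -0.02 and were not called. Of all genes, 6.35% were called lower in L1236, so the count without a test takes in small shifts. The 3 treated arrays were not alike. For treated L428 replicate 1, the array of highest correlation was replicate 1 of the untreated L428 group. Every other array had its closest match inside its own group. Why this array stood apart was not tested. The median deviation of the 45 genes from the untreated mean was 0.20 in treated L428 replicate 1 and 0.91 and 0.71 in replicates 2 and 3, and 0.10 in treated L1236 replicate 1 and 0.83 and 0.51 in replicates 2 and 3. In treated L428 replicate 1, 23 of the 45 genes lay at least 0.5 below both other treated arrays and 0 lay as far above them, where 10.9% and 12.1% of all genes did. In treated L1236 replicate 1, 13 lay below and 2 above, where 8.41% and 9.83% of all genes did. Without the 4 arrays numbered 1, 24 histone genes rose in L428, and 25 rose and 1 fell in L1236, where 28.9% and 34.5% of all genes were called in either direction. All 17 calls of each line were kept there.

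The size of the count depended on the fit. With only the arrays of the line in the fit, 9 genes were called in L428 and 16 in L1236, all higher, where 1.04% and 11.9% of all genes were called. With probe sets marked _x_at or _s_at left out, which may bind related sequences, 35 histone genes remained, of which 8 rose in L428 and 10 in L1236. There 3.62% and 12.5% of all genes were called in either direction. Centring each array on its median moved the median change of all genes by -0.43 in L428 and -0.48 in L1236. Then 19 histone genes were called higher and 12 lower in L428, and 16 higher and 14 lower in L1236. So were most genes of the array, 64.9% in L428 and 71.3% in L1236 being called in either direction. All 12 histone genes called lower in L428 stayed below 4 on every array, as did those in L1236 except H1-4, H2BC14 and H4C11. All 17 rises called in L428 kept their call under this centring, and 16 of the 17 in L1236, the exception being H3C6.

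**Figure D2:**
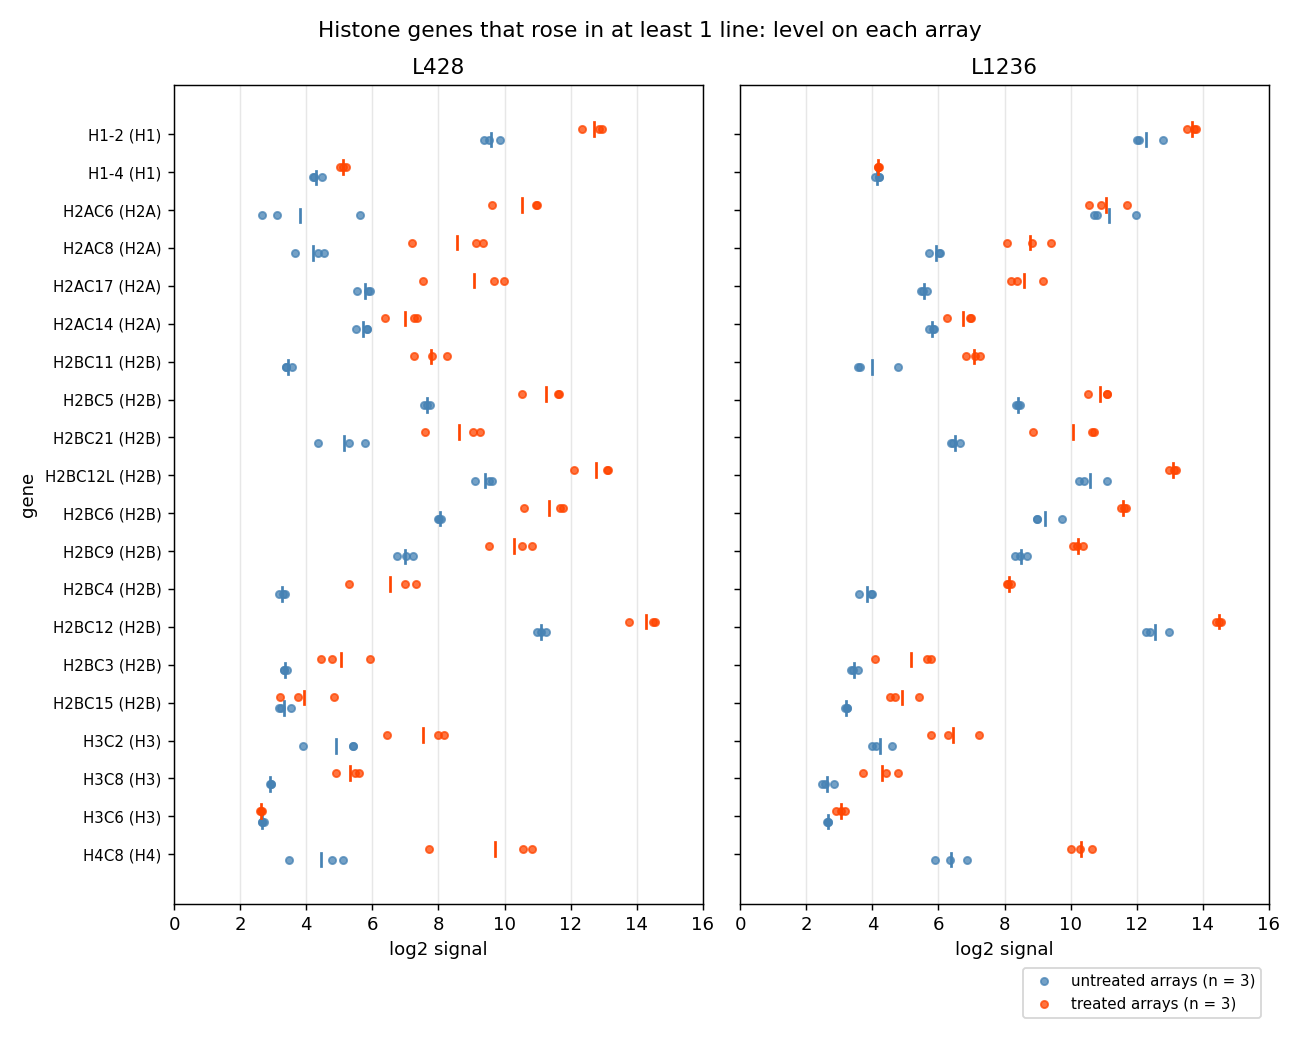
Log2 signal (x axis) on each array for the 20 histone genes called higher in at least 1 line, ordered by class, with L428 on the left and L1236 on the right; blue points are untreated and orange-red points treated arrays (n = 3 each) and vertical ticks are group means. In L1236 the treated and untreated arrays of H2AC6 overlap, while in L428 they are 6.71 apart on average.

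The linker histones bind DNA where it enters and leaves the nucleosome. H1-2 was at 9.86, 9.53 and 9.38 in untreated and 12.35, 12.94 and 12.86 in treated L428, and at 12.78, 12.07 and 11.99 in untreated and 13.79, 13.73 and 13.52 in treated L1236. All treated arrays lay above all untreated arrays of their line, and untreated L1236 arrays lay above untreated L428 arrays. The rise was 3.13 ± 0.24 (adjusted p = 2.41e-04) in L428 and 1.40 ± 0.24 (0.00561) in L1236. H1-4 was at 4.47, 4.23 and 4.20 in untreated and 5.10, 5.21 and 5.01 in treated L428, and between 4.09 and 4.19 on all 6 arrays of L1236. It rose by 0.81 ± 0.07 (6.03e-04) in L428, and its change in L1236 was 0.03 ± 0.07 (0.828), a value that turned to -0.46 with median centring and with quantile normalization, called lower both times. H1-1, H1-3, H1-5 and the testis linker histone H1-6 were not called in either line, with changes between -0.10 and 0.26 in L428 and between -0.23 and 0.50 in L1236. Without untreated L1236 replicate 1, the array with conflicting labels, H1-5 was called lower in L1236.

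H2A forms a dimer with H2B in the nucleosome core. H2AC6 was at 5.63, 3.13 and 2.66 in untreated and 9.61, 10.96 and 10.97 in treated L428, a rise of 6.71 ± 0.78 (0.00194). In L1236 it was at 11.99, 10.79 and 10.71 without and 11.70, 10.91 and 10.55 with the drug, a change of -0.11 ± 0.78 (0.934), which was 0.31 ± 0.86 (0.829) without the array with conflicting labels. The L428 groups were far apart, and the L1236 groups overlapped each other and the levels of treated L428. Its probe set is of the _s_at kind. The next 2 genes rose in both lines. H2AC8 was at 3.67, 4.54 and 4.37 in untreated and 7.20, 9.36 and 9.14 in treated L428, and at 6.01, 6.04 and 5.70 in untreated and 8.07, 9.40 and 8.82 in treated L1236, rises of 4.37 ± 0.56 (0.00327) and 2.85 ± 0.56 (0.0110). H2AC17 was at 5.54, 5.94 and 5.87 in untreated and 7.53, 9.98 and 9.69 in treated L428, and at 5.52, 5.65 and 5.48 in untreated and 8.20, 9.16 and 8.39 in treated L1236, rises of 3.29 ± 0.56 (0.0136) and 3.03 ± 0.56 (0.00821). Both genes were clear of overlap in each line, with treated replicate 1 the lowest of the treated arrays. The L428 call of H2AC17 was lost without treated replicate 2 or 3.

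H2AC14 rose by 1.26 ± 0.27 (0.0366) in L428, a call lost in 10 of the 12 cases with 1 array left out, and its change in L1236 was 0.93 ± 0.27 (0.0532). H2AC25, of the small cluster on chromosome 1, was at 11.74, 10.56 and 10.85 in untreated and 11.83, 11.52 and 11.68 in treated L428, and at 11.50, 9.71 and 9.82 in untreated and 10.33, 11.01 and 10.89 in treated L1236. In both untreated groups replicate 1 was the highest, and the groups overlapped. Its changes were 0.63 ± 0.48 (0.552) and 0.40 ± 0.48 (0.576). It was called higher in both lines without the 4 arrays numbered 1, at 0.90 ± 0.12 (0.00437) and 1.18 ± 0.12 (0.00125). Without the array with conflicting labels alone, its L1236 change was 0.98 ± 0.34 (0.112), and with median centring -0.08 (0.867). H2AC4, H2AC15, H2AC16 and the pseudogene H2AC5P were not called, with changes of 0.01 to 0.44 in L428 and -0.02 to 0.84 in L1236.

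H2B genes rose most often. H2BC12 was at 11.24, 11.11 and 10.98 in untreated and 13.77, 14.49 and 14.54 in treated L428, and at 12.97, 12.29 and 12.39 in untreated and 14.54, 14.50 and 14.39 in treated L1236. Its rises were 3.16 ± 0.23 (1.79e-04) and 1.92 ± 0.23 (9.43e-04), from high levels and with no overlap. H2BC12L, a gene on chromosome 21 close in sequence to H2BC12, was at 9.61, 9.10 and 9.53 in untreated and 12.12, 13.09 and 13.13 in treated L428, and at 11.10, 10.26 and 10.39 in untreated and 13.19, 12.98 and 13.12 in treated L1236, rises of 3.36 ± 0.30 (5.45e-04) and 2.51 ± 0.30 (0.00103). Its probe set is of the _x_at kind, so its signal cannot be assigned to that gene with certainty, and the same holds for H2BC5, H2BC6 and H2BC9.

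H2BC11 was at 3.37, 3.38 and 3.57 in untreated and 7.26, 8.27 and 7.81 in treated L428, and at 4.78, 3.62 and 3.57 in untreated and 7.26, 7.11 and 6.82 in treated L1236, with untreated replicate 1 the highest of its group in L1236. Its rises were 4.33 ± 0.34 (3.00e-04) and 3.08 ± 0.34 (6.84e-04). H2BC4 was at 3.34, 3.28 and 3.17 in untreated and 5.29, 7.33 and 6.98 in treated L428, and at 3.58, 3.99 and 3.95 in untreated and 8.19, 8.10 and 8.08 in treated L1236. It rose by 3.27 ± 0.43 (0.00392) and 4.28 ± 0.43 (3.97e-04), the latter the largest change of the 45 genes in L1236. Both genes went from below 5 to above 5 on every array in both lines.

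H2BC21, on chromosome 1, was at 4.36, 5.30 and 5.78 in untreated and 7.60, 9.25 and 9.05 in treated L428, and at 6.38, 6.44 and 6.65 in untreated and 8.85, 10.64 and 10.72 in treated L1236. The rises of 3.49 ± 0.61 (0.0148) and 3.58 ± 0.61 (0.00552) were close in size, and the L428 call was lost without untreated replicate 2 or treated replicate 2 or 3. The probe set of H2BC21 is of the _s_at kind. H2BC5 was at 7.73, 7.56 and 7.65 in untreated and 10.52, 11.64 and 11.62 in treated L428 and at 8.39, 8.36 and 8.48 in untreated and 10.53, 11.09 and 11.09 in treated L1236, rises of 3.61 ± 0.28 (2.74e-04) and 2.49 ± 0.28 (7.37e-04). A second probe set of H2BC5 rose by 4.27 ± 0.47 and 2.20 ± 0.47. The spread within each group of H2BC5 was small beside these rises.

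H2BC6 was at 8.091, 7.998 and 8.006 in untreated and 10.60, 11.76 and 11.67 in treated L428, and at 9.73, 8.98 and 8.98 in untreated and 11.51, 11.67 and 11.61 in treated L1236, rises of 3.31 ± 0.30 (5.79e-04) and 2.37 ± 0.30 (0.00138). H2BC9 was at 7.23, 7.01 and 6.75 in untreated and 9.52, 10.84 and 10.53 in treated L428, and at 8.68, 8.30 and 8.47 in untreated and 10.08, 10.19 and 10.36 in treated L1236, rises of 3.30 ± 0.30 (5.45e-04) and 1.73 ± 0.30 (0.00594). For both, treated L428 replicate 1 was more than 1 below the other treated arrays and still above all untreated ones. H2BC15 and H2BC3 were called in L1236, at 1.68 ± 0.38 (0.0196) and 1.72 ± 0.48 (0.0424). Their changes in L428 were 0.62 ± 0.38 (0.449) and 1.70 ± 0.48 (0.0837), and the L1236 calls of both were lost without the array with conflicting labels. H2BC17 changed by 2.11 ± 0.58 (0.0781) in L428 and 1.09 ± 0.58 (0.243) in L1236 and was not called in either. H2BC14, H2BC13 and the testis gene H2BC1 were not called, and H2BC13, whose promoter is shown above, lay between 1.88 and 1.94 on all 12 arrays.

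H3 and H4 form the tetramer at the centre of the nucleosome. H3C2 was at 3.91, 5.40 and 5.42 in untreated and 6.44, 7.98 and 8.18 in treated L428, and at 3.98, 4.59 and 4.11 in untreated and 5.77, 7.21 and 6.30 in treated L1236. The groups did not overlap, and the rises were 2.62 ± 0.59 (0.0401) and 2.20 ± 0.59 (0.0370). The L428 call was lost in 10 and the L1236 call in 6 of the 12 cases with 1 array left out, both of them without the array with conflicting labels. The probe set of H3C2 is of the _s_at kind. H3C8 rose by 2.40 ± 0.27 (0.00156) and 1.68 ± 0.27 (0.00407), through an _x_at probe set. H3C6 was between 2.61 and 2.72 on the 9 arrays other than treated L1236, where it was at 3.17, 3.05 and 2.90. That is a rise of 0.40 ± 0.06 (0.00261) at the low end of the scale, which turned to -0.084 with median centring. Its second probe set changed by 0.09 ± 0.03 and was not called. H3C1, H3C3, H3C7 and H3C11 were not called, with changes of -0.02 to 1.25 in L428 and -0.02 to 2.02 in L1236.

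H4C8 was at 5.10, 4.77 and 3.47 in untreated and 7.72, 10.83 and 10.56 in treated L428, and at 6.87, 5.88 and 6.35 in untreated and 10.00, 10.66 and 10.29 in treated L1236. It rose by 5.25 ± 0.78 (0.00711) and 3.95 ± 0.78 (0.0112) with no overlap, although treated L428 replicate 1 lay far below the other treated arrays. Its second probe set rose by 6.40 ± 0.80 and 4.46 ± 0.80. H4C11 was at 4.90, 5.73 and 5.77 in untreated and 5.62, 6.99 and 6.91 in treated L428, and at 6.45, 6.93 and 6.81 in untreated and 5.76, 6.57 and 5.75 in treated L1236. Its changes of 1.04 ± 0.41 (0.199) and -0.71 ± 0.41 (0.283) were not called, and the groups of each line overlapped. H4C1, H4C4, H4C5, H4C7, H4C9, H4C13 and the pseudogene H4C10P were not called, with changes of -0.05 to 0.61 in L428 and -0.09 to 0.90 in L1236.

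The responses of the lines were compared directly, as the L1236 response minus the L428 response. Of the 45 genes, 4 (8.89%) were called, 1 higher and 3 lower, where 4.62% of all genes were called, 2.66% higher and 1.96% lower, so this share is near the background. H2AC6 differed by -6.82 ± 1.10 (0.0112), H1-2 by -1.73 ± 0.34 (0.0247) and H1-4 by -0.78 ± 0.11 (0.00500), all with the larger rise in L428. H3C6 differed by 0.43 ± 0.08 (0.0224), with the larger change in L1236. The call of H1-2 was lost in 6 and that of H3C6 in 7 of the 12 cases with 1 array left out, and those of H2AC6 and H1-4 in none. H2BC12 and H2BC9 had differences of -1.24 ± 0.32 (0.0723) and -1.57 ± 0.42 (0.0777), which did not pass. With the replicate number as a block, H4C11 was called too, at -1.74 ± 0.34 (0.0432). The median difference of the 45 genes was -0.21, beside -0.01 for all genes. Without the 4 arrays numbered 1, 15 genes were called, 3 higher and 12 lower, where 23.8% of all genes were called. With single arrays left out, 2 to 10 genes were called, 10 without treated L428 replicate 1 and 2 without untreated L428 replicate 2 or 3, treated L428 replicate 2 or 3 or treated L1236 replicate 2.

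**Figure D3:**
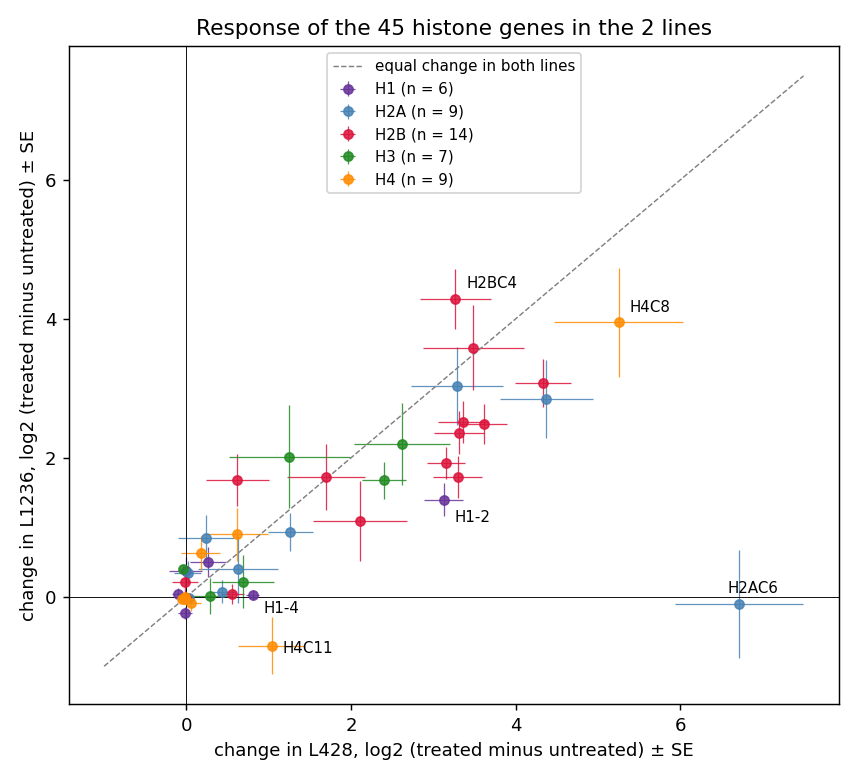
Change in L428 (x axis) against change in L1236 (y axis), both log2 and ± SE, for the 45 histone genes, coloured by class, with the dashed line marking equal change. H2AC6 lies at 6.71 in L428 and -0.11 in L1236, and H2BC4 at 3.27 and 4.28.

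Without the drug, 8 of the 45 genes (17.8%) were called higher in L1236 than in L428 and 0 were called lower, where 15.2% and 13.6% of all genes were, so the share that was higher is near the background. H2AC6 was higher by 7.36 ± 0.78 (9.07e-05) and H1-2 by 2.69 ± 0.24 (2.73e-05), with no overlap. H2AC8 was higher by 1.72 ± 0.56 (0.0480), H2BC9 by 1.49 ± 0.30 (0.00448), H2BC12 by 1.44 ± 0.23 (0.00112), H2BC6 by 1.20 ± 0.30 (0.0153), H2BC12L by 1.17 ± 0.30 (0.0175) and H4C11 by 1.27 ± 0.41 (0.0461). Without untreated L1236 replicate 1, the calls of H2AC8, H2BC12L, H2BC6 and H4C11 were lost, and H1-5 was called higher and H2AC25 lower (-1.28 ± 0.34, 0.0256), making 5 higher and 1 lower. With the replicate number as a block, H2BC21 was called higher too (1.34 ± 0.34, 0.021). The calls of H2AC8 and H4C11 were each lost in 9 of the 12 cases with 1 array left out, and 5 genes were called without untreated L428 replicate 2. On untreated L1236 replicate 1, 9 of the 45 genes lay at least 0.5 above both other untreated L1236 arrays and 0 as far below, where 5.60% and 2.72% of all genes did. This comparison shares its untreated arrays with the responses of both lines.

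Probe sets that match several histone genes moved the same way in most cases. Of the 20, 12 were called higher and 0 lower in L428, and 13 higher and 1 lower in L1236, in a fit over 54613 probe sets. There 1.82% of all probe sets were higher and 1.2% lower in L428, and 4.58% and 4.44% in L1236. With only the L428 arrays in the fit, 1 of the 20 was called in L428, and without treated L428 replicate 2 or 3 the number was 7. Without the array with conflicting labels, 10 were called higher and 1 lower in L1236, and 210387_at, 214542_x_at and 215779_s_at were not called there. Many of these probe sets match overlapping groups of genes, also ones with probe sets of their own, so they are not independent of the values above or of each other. For 19 histone genes they are the only measurement.

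Most shared probe sets for H3 genes rose. Probe set 206110_at, for 10 H3 genes, was at 4.18, 3.41 and 4.15 in untreated and 8.24, 9.55 and 9.67 in treated L428, and at 5.85, 5.72 and 5.39 in untreated and 9.16, 9.70 and 9.46 in treated L1236. It rose by 5.24 ± 0.38 (adjusted p = 2.54e-04) and 3.79 ± 0.38 (5.61e-04). Probe set 214472_at, for the same H3 genes and H2AC7, was at 3.96, 4.44 and 4.06 in untreated and 7.27, 9.47 and 9.21 in treated L428, and at 6.40, 6.24 and 5.86 in untreated and 9.02, 9.48 and 9.18 in treated L1236, rises of 4.49 ± 0.50 and 3.06 ± 0.50. Treated and untreated arrays were well apart for both, in both lines. Probe set 214522_x_at, for H3C4 and H2AC7, was at 4.79, 4.76 and 4.74 in untreated and 7.64, 9.19 and 9.19 in treated L428, and at 6.52, 6.52 and 6.38 in untreated and 9.09, 9.02 and 9.01 in treated L1236, rises of 3.91 ± 0.35 and 2.57 ± 0.35. The adjusted p-values of these last probe sets were at most 0.00663 in each line. The exception was 214646_at, annotated to the same 10 H3 genes as 206110_at. It lay between 1.99 and 2.02 on all 12 arrays, at the bottom of the scale, and was not called in either line.

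Among H2A genes without a probe set of their own are H2AC18 and H2AC19, a duplicated pair. Their probe set 214290_s_at was at 11.80, 11.97 and 12.14 in untreated and 13.42, 14.69 and 14.68 in treated L428, and at 12.38, 11.66 and 11.71 in untreated and 14.03, 14.74 and 14.59 in treated L1236. It rose by 2.30 ± 0.36 (0.0126) and 2.54 ± 0.36 (0.00344). Their probe set 218280_x_at was at 10.22, 10.38 and 10.61 in untreated and 11.87, 13.48 and 13.40 in treated L428, and at 10.58, 9.93 and 9.97 in untreated and 12.42, 13.34 and 13.03 in treated L1236, rises of 2.52 ± 0.43 and 2.77 ± 0.43. Another probe set, 218279_s_at, changed by 1.90 ± 0.43 (0.0554) and 1.09 ± 0.43 (0.168) and was not called. For 6 H2A genes, H2AC11 to H2AC13 and H2AC15 to H2AC17, probe set 207156_at was at 5.73, 5.33 and 4.62 in untreated and 8.01, 10.32 and 9.94 in treated L428, and at 5.75, 6.06 and 6.07 in untreated and 9.17, 9.04 and 8.96 in treated L1236, rises of 4.19 ± 0.54 and 3.10 ± 0.54. The other probe set of these 6 genes, 214542_x_at, rose by 1.43 ± 0.27 from 5.14, 5.21 and 5.18 to 5.88, 7.01 and 6.93, and by 1.12 ± 0.27 from 5.67, 5.52 and 5.98 to 6.82, 6.94 and 6.78. Both probe sets of this group thus rose in both lines.

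For 5 H2B genes, H2BC4, H2BC6, H2BC7, H2BC8 and H2BC10, 3 probe sets rose in both lines. Probe set 214455_at was at 5.72, 5.75 and 5.64 in untreated and 8.03, 10.05 and 9.92 in treated L428, and at 5.92, 5.86 and 5.97 in untreated and 10.06, 10.30 and 10.37 in treated L1236, rises of 3.63 ± 0.45 and 4.32 ± 0.45. Probe set 208490_x_at rose by 3.15 ± 0.28 from 7.35, 6.98 and 7.28 to 9.63, 10.69 and 10.74, and by 2.43 ± 0.28 from 8.60, 8.04 and 8.11 to 10.62, 10.70 and 10.71. In none of these 3 did treated and untreated arrays overlap. Probe set 208523_x_at rose by 2.80 ± 0.36 from 6.29, 6.67 and 6.20 to 8.20, 9.75 and 9.62, and by 2.39 ± 0.36 from 7.14, 6.65 and 6.78 to 9.31, 9.17 and 9.25. Both probe sets for H2BC8 and H2BC11, 210387_at and 215779_s_at, rose in both lines too. Probe set 210387_at rose from 3.47, 3.54 and 3.47 to 6.70, 9.32 and 9.40 in L428 (4.98 ± 0.84) and from 5.32, 6.94 and 5.70 to 8.21, 10.50 and 10.31 in L1236 (3.69 ± 0.84). Probe set 215779_s_at rose from 4.83, 4.50 and 3.60 to 7.44, 10.26 and 10.24 in L428 (5.01 ± 0.84) and from 6.62, 6.39 and 6.62 to 8.86, 11.14 and 11.02 in L1236 (3.80 ± 0.84). In both, treated replicate 1 was more than 2 below the other treated arrays of its line.

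The H4 probe sets did not move together. Probe set 205967_at is annotated to 14 H4 genes, and the accession listed with it is that of H4C3. It was at 11.24, 11.23 and 11.24 in untreated and 11.23, 9.77 and 10.01 in treated L428, and at 11.25, 11.67 and 11.38 in untreated and 9.60, 8.84 and 7.83 in treated L1236. In L1236 it fell by 2.67 ± 0.47 (0.00934) with no overlap, and in L428 treated replicate 1 stayed at the untreated level while replicates 2 and 3 lay below it, a change of -0.90 ± 0.47 (0.414). The fall in L1236 was called in all settings tried except the fit with only the L1236 arrays (0.0525). Probe set 208181_at, annotated to the same 14 genes with the accession of H4C8, was at 3.07, 3.23 and 3.08 in untreated and 3.58, 5.21 and 4.79 in treated L428, and at 3.39, 3.12 and 3.09 in untreated and 5.25, 5.53 and 6.31 in treated L1236. It rose by 2.50 ± 0.40 (0.00602) in L1236 and changed by 1.40 ± 0.40 (0.115) in L428. The other 3 probe sets of this group and the 1 for H4C6 and H4C7 were not called in either line. Among them 207046_at changed by 3.13 ± 0.73 (0.0613) in L428 and 1.81 ± 0.73 (0.175) in L1236, with no overlap. Without the 4 arrays numbered 1, 207046_at was called higher in both lines. For 208580_x_at, 214516_at and the probe set of H4C6 and H4C7, treated and untreated arrays overlapped in both lines. Of the 20 shared probe sets, 0 were called in the test of the difference between the lines, with 1.42% and 1.15% of all probe sets called higher and lower there, and 3 had an unadjusted p under 0.05. Without the 4 arrays numbered 1, 1 was called higher and 7 lower in that test.

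**Figure D4:**
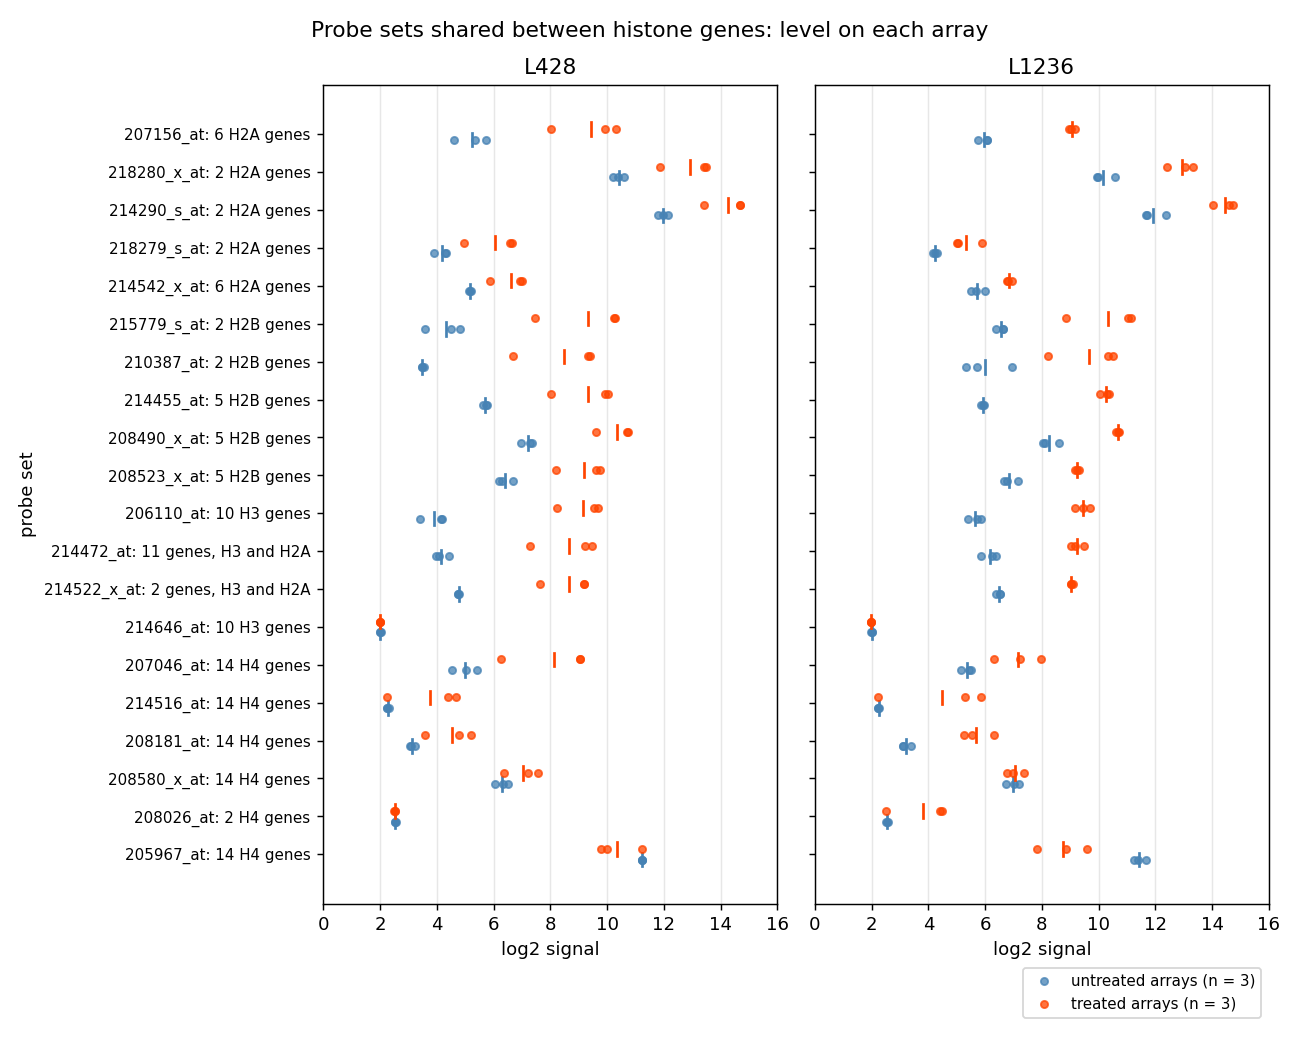
Log2 signal (x axis) on each array for the 20 probe sets that match several histone genes, with the number of genes each matches, in L428 (left) and L1236 (right); blue points are untreated and orange-red points treated arrays (n = 3 each) and vertical ticks are group means. Probe set 205967_at, for 14 H4 genes, lies lower on the treated L1236 arrays, between 7.83 and 9.60, than on the untreated ones, between 11.25 and 11.67.

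The genes lie mostly in clusters, 42 of them on chromosome 6. In the cluster from H2BC1 to H4C8, 11 of 26 genes rose in each line, among the 3 genes H2BC11, H2BC12 and H4C9 it was 2 in each, and in the cluster from H4C10P to H2BC17 it was 2 of 13 in each. Of the 3 genes on other chromosomes, H2BC21 and H2BC12L rose in both lines and H2AC25 was called in neither. An H2A and an H2B gene often start back to back, and 5 pairs of neighbours on opposite strands with starts up to 1000 bases apart had a probe set of its own for each gene. For H2BC4 and H2AC6, whose starts lie 246 bases apart across the H2AC6 stretch printed above, the changes were 3.27 and 6.71 in L428, and 4.28 and -0.11 in L1236. H2AC17 rose in both lines, by 3.29 and 3.03, while its neighbour H2BC17 changed by 2.11 and 1.09 and was not called in either. H2AC14 was called in L428 at 1.26 and H2BC14 was not, at 0.56. H2BC15 was called in L1236 at 1.68 and H2AC15 was not, at 0.84. H2BC9 rose in both lines beside H3C7, which changed by 0.28 and 0.01 and was not called. Differences within a pair were not tested, so a call beside no call does not mean that neighbours differ. Among promoters with a match in RefSeq, the octamer stood in 8 of 13 genes called in both lines, 3 of 6 called in 1 line and 5 of 21 not called, and class and level differ between these groups. The same octamer is counted for both genes of a pair with a shared stretch. For H2AC17 and H2BC17 it is counted in different groups.

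Other genes of the pathway were looked at through lists. Of all genes, 3.32% were called higher and 1.34% lower in L428, and 8.59% and 6.35% in L1236. In either direction, 28.9% and 34.5% were called without the 4 arrays numbered 1. Without the array with conflicting labels the shares were 3.94% and 11.6%, and with the replicate block 5.71% and 17.5%. Beside these shares, which hold for the marker lists below too, counts of 1 or 2 genes say little about a list. Of 9 measured replacement histones, which can be made outside S phase from polyadenylated mRNAs, limma called 0 in L428 (3 at an unadjusted p under 0.05) and 1 in L1236. This was H2AJ, an H2A variant, at 9.85, 9.38 and 9.75 in untreated and 11.15, 11.34 and 11.23 in treated L1236, a rise of 1.58 ± 0.18 (8.47e-04). The list's median change was -0.17 in L428 and -0.11 in L1236. Without the 4 arrays numbered 1, H2AJ was called higher and 4 of the 9 lower in each line. In L428 the smallest p of the list was that of MACROH2A1, an H2A variant with a macrodomain, at -0.45 ± 0.13 (0.0821). With the replicate number as a block, 1 of the 9 was called in L428, H2AZ2, an H2A.Z gene, at -0.99 ± 0.19 (0.0358).

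Of 19 genes of histone transcription and 3′ end processing, 1 rose in L428 and 2 fell in L1236, with medians of 0.04 and -0.10. ZNF473, a zinc-finger protein of the U7 snRNP pathway that cuts histone mRNAs, was at 6.85, 7.18 and 7.22 in untreated and 7.89, 9.17 and 9.19 in treated L428 and rose by 1.67 ± 0.31 (0.0211). LSM10, a subunit of the U7 snRNP, changed by -0.63 ± 0.17 (0.0362) and the DNA damage kinase gene ATM by -0.66 ± 0.15 (0.0179) in L1236, the call of ATM being lost without the array with conflicting labels. The coactivator NPAT changed by 0.69 ± 0.33 (0.289) in L428 and 0.57 ± 0.33 (0.278) in L1236, and the stem-loop binder SLBP by 0.06 ± 0.14 (0.834) and 0.32 ± 0.14 (0.160). Without the arrays numbered 1, NPAT was called higher in both lines, 5 genes of the list rose and 2 fell in L428, and 3 rose and 8 fell in L1236. POU2AF1, a B-cell coactivator that acts with OCT factors on the octamer, was between 2.35 and 2.43 on all 6 arrays of L428 and between 11.56 and 13.55 on those of L1236, and its part in any histone value was not tested.

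Of 17 histone chaperones and assembly factors, limma called 0 in L428 (3 at an unadjusted p under 0.05) and 2 lower in L1236. These were HAT1, which acetylates new H4, at -0.50 ± 0.14 (0.0473) and the H2A-H2B chaperone NAP1L1 at -0.38 ± 0.11 (0.0475). In L428 the smallest p was that of ASF1A, an H3-H4 chaperone, at 0.38 ± 0.13 (0.140). Both L1236 calls were lost without the array with conflicting labels, and with the replicate number as a block NAP1L1 was called lower in L428 at -0.31 ± 0.04 (0.011). The medians were -0.06 and -0.17. Without the arrays numbered 1, 3 rose and 5 fell in L428, and 1 rose and 8 fell in L1236.

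Genes of S phase are usually expressed at the same time as the histone genes. Of 23 DNA replication genes, limma called 0 in L428 (6 at an unadjusted p under 0.05), with a median of 0.03, and 2 higher and 5 lower in L1236, with a median of -0.41. CDC45, a subunit of the replicative helicase, was at 9.97, 9.76 and 9.53 in untreated and 10.77, 10.92 and 11.05 in treated L1236 and rose by 1.16 ± 0.16 (0.00183), and its change in L428 was 0.53 ± 0.16 (0.0998). POLA1, a subunit of the priming polymerase, changed by -1.21 ± 0.17 (0.00239) and GINS2, another helicase subunit, by -1.65 ± 0.34 (0.0135) in L1236. Without the array with conflicting labels, 1 rose and 6 fell in L1236. Without the arrays numbered 1, 4 rose and 5 fell in L428, and 3 rose and 17 fell in L1236.

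Of 17 genes of G2 and mitosis, limma called 0 in L428 (2 at an unadjusted p under 0.05) and 1 lower in L1236, with medians of -0.16 and -0.30. This was the spindle motor KIF11, at -1.15 ± 0.30 (0.0349), a call lost without the array with conflicting labels, and in L428 the smallest p was that of the checkpoint kinase BUB1B, at -0.55 ± 0.20 (0.167). Of 8 cell-cycle arrest genes, 1 rose in L428 and 4 in L1236, with medians of 0.52 and 2.20. The CDK inhibitor CDKN1A was at 6.38, 7.02 and 7.03 in untreated and 8.07, 9.95 and 9.78 in treated L428, and at 7.37, 6.95 and 6.51 in untreated and 9.18, 10.61 and 10.82 in treated L1236, rises of 2.46 ± 0.58 (0.0472) and 3.26 ± 0.58 (0.00652). The L428 call of CDKN1A was lost without the array with conflicting labels. CDKN1C, CDKN2D and TP53INP1 rose in L1236 by 3.25 ± 0.31, 1.77 ± 0.22 and 2.93 ± 0.48, with adjusted p-values of at most 0.00446. Without the arrays numbered 1, 5 G2 and mitosis genes fell in L428 and 14 in L1236, and 4 and 6 arrest genes rose, with 1 falling in L1236. There 28.9% and 34.5% of all genes were called in either direction, so 5 of 17 in L428 is near the background. The part of the cell cycle in the histone values was not tested.

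The labelled cell type was checked with marker lists. TNFRSF8 (CD30), the defining antigen of Hodgkin cells, lay between 9.47 and 10.80 on all arrays, and the B-cell antigen MS4A1 (CD20), usually lost in them, between 2.43 and 2.59. Not every gene of the 2 lists went this way. Only 2 of 6 B-cell markers lay below 4 on each untreated L428 array, and 3 on each untreated L1236 array. Among 8 Hodgkin markers, 1 lay below 4 on each untreated L428 array and 1 or 2 on the untreated L1236 arrays. Between the untreated lines, 2 Hodgkin markers were called higher and 3 lower in L1236, and 1 B-cell marker higher and 1 lower. There 15.2% of all genes were higher and 13.6% lower. Of 8 Hodgkin markers, 2 rose in L428 (CD274 and CCL22) and 4 in L1236, among them CCL17, CCL22 and CD40, and of 6 B-cell markers, PAX5 rose in L428 at 1.22 ± 0.28 (0.0445) and CD79B in L1236 at 0.81 ± 0.22 (0.0408). With the replicate number as a block, the L428 calls of CD274 (0.0568), CCL22 (0.0525) and PAX5 (0.0614) were lost. Without the array with conflicting labels, the L428 calls of CCL22 and PAX5 and the L1236 call of CD79B were lost. With the arrays numbered 1 left out, 4 Hodgkin markers rose in L428 and 6 in L1236, and of the B-cell markers 1 rose and 1 fell in L428 and 2 rose in L1236. Of 17 markers of T cells, NK cells, myeloid and stromal cells, limma called 0 in L428 (4 at an unadjusted p under 0.05) and 5 higher in L1236, the epithelial gene EPCAM by 5.37 ± 0.10, the keratin KRT18 by 4.75 ± 0.27, the T-cell gene CD8A by 3.36 ± 0.17, the T-cell gene CD3D by 2.43 ± 0.43 and the collagen gene COL1A1 by 2.86 ± 0.32. With the replicate number as a block, KRT8, a keratin gene, and NKG7, a gene of cytotoxic lymphocytes, were called higher in L428. With the arrays numbered 1 left out, 3 rose (CSF1R, KRT18 and NKG7) and 1 fell (PECAM1) in L428, and 5 rose and 1 fell in L1236. Averaged over these 17 genes, the level was 3.45 to 3.65 in untreated and 3.79 to 3.92 in treated L428, and 3.63 to 3.73 and 4.78 to 4.99 in L1236. CD3D lay between 3.86 and 5.44 on all arrays but the treated L1236 ones, where it was at 6.42, 6.57 and 6.69, while the T-cell gene CD3E stayed between 1.74 and 1.77 and the monocyte gene CD14 between 2.25 and 2.32 on all arrays, at the bottom of the scale. The part of these markers in the histone values was not tested.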

How the data were processed

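RNA of 12 cell-line samples was measured on single-channel arrays. Each array gives 1 deposited log2 signal per probe set, computed by the authors through robust multichip averaging (RMA) as the submitters' processing notes and the labels state; its version is not given in the sources used here. The range was 0.66 to 16.62, with array medians of 3.01 to 3.09, and no read depth exists for arrays, whose number limits the precision. No centring beyond RMA is recorded. Groups came from the sample descriptions.

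Of 54675 probe sets, 62 were controls, 41097 had 1 gene symbol, 1801 several and 11777 none in the platform annotation supplied with the table. Symbols were updated through Entrez identifiers to RefSeq for 41043 of them, each gene was represented by its probe set of highest mean on the 12 arrays, and no dim gene was removed. A model of 4 group means was fitted to all arrays with limma 3.58.1 in R 4.3.3 (empirical Bayes, Benjamini-Hochberg over 19775 genes, two-sided), and a second one to 54613 probe sets. The gene fit was tested on simulated data with 100 changed genes. At a log2 change of 1 it recovered 58 with 7 false calls in L428, and 53 with 9 in L1236. At a change of 2 it recovered 83 with 7 and 85 with 9. Within each comparison, values in every array are given for the called histone genes with the largest changes (at most 10), the gene of highest mean in each class and the shared probe sets called in a comparison; from each other list up to 3 called genes are named, or the one with the smallest p. The members, lists and tests were chosen with earlier results of these data known. The labels do not say that equal replicate numbers mark shared cultures. Deviations of same-numbered arrays from their group means correlated over 0.1 in all 3 pairs of untreated with treated L428 (0.16 to 0.25), of the untreated lines (0.11 to 0.36) and of the treated lines (0.24 to 0.40), but in 0 of 3 of untreated with treated L1236 (-0.02 to 0.06). The numbers were therefore taken as pairing the arrays in the L428 and untreated comparisons, where block results are given beside calls they change. Unless a block is named, each SE and p-value comes from the fit without this pairing, also for the difference between the lines. Alternatives changed scaling, filters, probe sets, arrays in the fit, array weights and a replicate block. Upstream sequences came from the RefSeq promoter table, GRCh38.p14, cut at the start of transcription. Proteins were not used here.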

Additional observations from a re-analysis of the deposited data

Results flagged for a closer look

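The response to 5-Aza-dC of 4 of the 45 histone genes (8.89%) differed between the lines by the test of the difference itself, the L1236 change minus the L428 change in limma. Of all genes 4.62% were called in this test, so the share is near the background. H2AC6 differed by -6.82 ± 1.10 (adjusted p = 0.0112), with a rise of 6.71 in L428 and a change of -0.11 in L1236, where its untreated level was already 7.36 above that of L428. H1-2 differed by -1.73 ± 0.34 (0.0247), with rises of 3.13 and 1.40. H1-4 differed by -0.78 ± 0.11 (0.005), with a rise of 0.81 in L428 and a change of 0.03 in L1236. H3C6 differed by 0.43 ± 0.08 (0.0224), with changes of -0.04 and 0.40 at levels near the bottom of the scale. In each case all 3 treated arrays of the line with the larger change lay above its 3 untreated arrays. With 1 array left out, the call of H1-2 was lost in 6 and that of H3C6 in 7 of the 12 cases. The call of H3C6 was also lost with median centring. In the fit over all probe sets, its second probe set differed by 0.10 ± 0.04 (0.292) and was not called. Why the lines differ was not tested.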

How the results depend on the processing

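The rises called in L428 kept their direction in all settings tried, as did those in L1236 except H3C6, whose change turned to -0.0844 with median centring. The uncalled L1236 change of H1-4 turned to -0.46 with median centring and -0.46 with quantile normalization. The number of the 45 genes called was 17 in L428 and in L1236, 4 for the difference in response and 8 between untreated lines. Of all genes, 4.65%, 14.9%, 4.62% and 28.8% were called. Median centring gave 31 in L428 (19 higher, 12 lower) and 30 in L1236 (16 and 14), against 64.9% and 71.3% of all genes. With array weights, whose estimation stopped before it converged, the number was 26, 29, 18 and 16. Of all genes, 33.2%, 49.2%, 28.9% and 44.3% were called there. Without _x_at and _s_at probe sets, 35 genes remained, and 8, 10 and 2 were called in L428, L1236 and the untreated lines. There 3.62%, 12.5% and 24.8% of all genes were called. With only the arrays compared the number was 9 in L428 (1.04% of all genes). Without the 4 arrays numbered 1 it was 26 in L1236, 15 for the difference and 14 for the untreated lines, against 34.5%, 23.8% and 37.9% of all genes. With 1 array left out the numbers ran from 13 to 23, 14 to 24, 2 to 10 and 5 to 11. Of the 20 shared probe sets, for which these settings were added after the data were seen, 12 were called in L428 and 14 in L1236. The number was 1 in L428 with only its arrays, and ran from 7 to 16 in L428 and 11 to 18 in L1236 over the cases with 1 array or all arrays numbered 1 left out. Of the values of single genes, 900 kept their sign and their side of the threshold, 67 lost their call, 8 gained one and 7 changed sign. Of these 7, 3 are the ones above and 4 were not called either way, 1 of H1-4, 1 of H2AC25 and 2 of H2AC6, all in L1236. The cause of these shifts was not tested beyond the smaller number of arrays or probe sets.

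With replicate number as a block, 17, 18, 5 and 9 genes were called, no call was lost, and H2AC14, H4C11 and H2BC21 were gained, in L1236, in the difference and between the untreated lines. All counts rest on 3 arrays a group, and signals near 2 to 3 cannot show a fall.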
